A study of Mus musculus with 16 samples.

Results

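Nnt and 9 genes of antioxidant enzymes, Sod1, Sod2, Prdx3, Prdx5, Txn2, Txnrd2, Gpx1, Gpx4 and Cat, were read by symbol from a table of transcript levels in mouse gastrocnemius, a calf muscle. All 10 were among the 23440 genes of the table, and all 10 passed the filter on low values, which kept 10171 genes. The muscle came from 16 male C57Bl6/J mice aged 20 weeks. Wild-type (WT) mice and Il13-/- mice, which lack interleukin-13, were each studied untrained or after 5 weeks of endurance training on a treadmill every day, with 4 mice in each of the 4 groups. The untrained mice were the controls within each genotype, and mice of both genotypes are labelled with the same strain. Whether the knockout and WT mice were littermates is not given in the labels. Levels are RPKM, reads divided by gene length and by the library's total, so they can be set side by side between genes.

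These enzymes remove superoxide and peroxides, which mitochondria and oxidases release. Superoxide dismutases turn superoxide into hydrogen peroxide, and catalase, peroxiredoxins and glutathione peroxidases then reduce peroxides. Peroxiredoxins of the mitochondrial matrix are recharged by thioredoxin 2 and thioredoxin reductase 2, and glutathione by its own reductase, both at the cost of NADPH. Nicotinamide nucleotide transhydrogenase, the product of Nnt, sits in the inner mitochondrial membrane and uses the proton gradient to make NADPH in the matrix. Some C57BL/6J stocks carry a deletion within Nnt, and the mm10 genome was assembled from that strain.

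No member passed the test in any of the 7 comparisons made, at an adjusted p under 0.05 (limma, Benjamini-Hochberg over all 10171 genes). Nnt and Sod2 were higher in every WT trained mouse than in any WT untrained mouse, where groups did not overlap for 6.37% of all genes. Sod2 and Txn2 were lower in every Il13-/- trained mouse than in any WT trained mouse, where groups did not overlap for 8.48% of all genes. Sod1, Txnrd2, Gpx1 and Gpx4 averaged less in trained than in untrained mice of both genotypes. The differences between group means on the log2 scale ran from -0.34 to 0.50, and none of them reached the threshold.

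The 16 libraries held from 16307025 to 20074677 reads, as worked out from the smallest values. The share of a library's reads that fell in the listed genes was 79.9 to 83.3% in WT untrained, 76.0 to 83.5% in WT trained, 77.2 to 81.7% in Il13-/- untrained and 75.6 to 78.3% in Il13-/- trained mice. RPKM is scaled to all reads of a library, listed or not. A rescaling of values to the reads in listed genes was chosen after seeing the data. With it the training difference in WT was 0.57 for Nnt (adjusted p = 0.0315, limma) and 0.30 for Sod2 (adjusted p = 0.0138). Both passed the threshold, but over all tested genes 233 did so in this fit, 85.0% of them higher in trained mice. The rescaling also moved the median training difference in WT over all tested genes from 0.008 to 0.074. WT trained replicate 1 had the highest share of the 16 libraries and the highest level of Nnt, Sod2, Prdx5, Txn2, Txnrd2 and Gpx4. The targeted gene, Il13, had 0 reads in all 8 WT libraries and 0 to 2 reads in the Il13-/- libraries, under the 3 reads that a count of 0 allows, so it did not check the genotype labels. Fast muscle markers summed to between 67727 and 90458 RPKM in each library, and none of the 8, such as Ckm and Acta1, was at 0 in any.

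Gpx4 and Sod1 were the most abundant members and Nnt the least. Over the 16 libraries Gpx4 averaged 182 RPKM, Sod1 157 RPKM, Txn2 108 RPKM, Prdx3 97.6 RPKM and Prdx5 96.0 RPKM. Sod2 followed at 58.8 RPKM, Cat at 51.6 RPKM and Gpx1 at 42.8 RPKM, while Txnrd2 averaged 7.82 RPKM and Nnt 7.66 RPKM. In this order neighbours overlapped in their ranges over the 16 libraries, other than Prdx5 above Sod2 and Gpx1 above Txnrd2. Sod1 exceeded Txn2 within each of the 16 libraries although their ranges touched, and Txnrd2 exceeded Nnt in 10 of 16. Nnt had the widest range, its highest library holding 2.26 times the level of its lowest, and Prdx3 the narrowest, 1.19 times.

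The depth behind these levels differed. Nnt rested on 423 to 930 reads a library and Txnrd2 on 228 to 304, while Sod2 had 3238 to 5001 reads and Gpx4 3323 to 4498. The mean within-group coefficient of variation was 3.40% for Prdx3, 5.62% for Sod2 and 6.49% for Txn2, against a median of 9.76% over all tested genes. It was 15.1% for Nnt, 14.9% for Cat and 15.3% for Gpx1, so differences of a given size were less precise for these 3 members. The 4 libraries of a group are from separate mice. P-values weigh a difference of group means against the spread between mice, estimated over the 4 groups together and moderated by that of other genes.

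**Figure D1:**
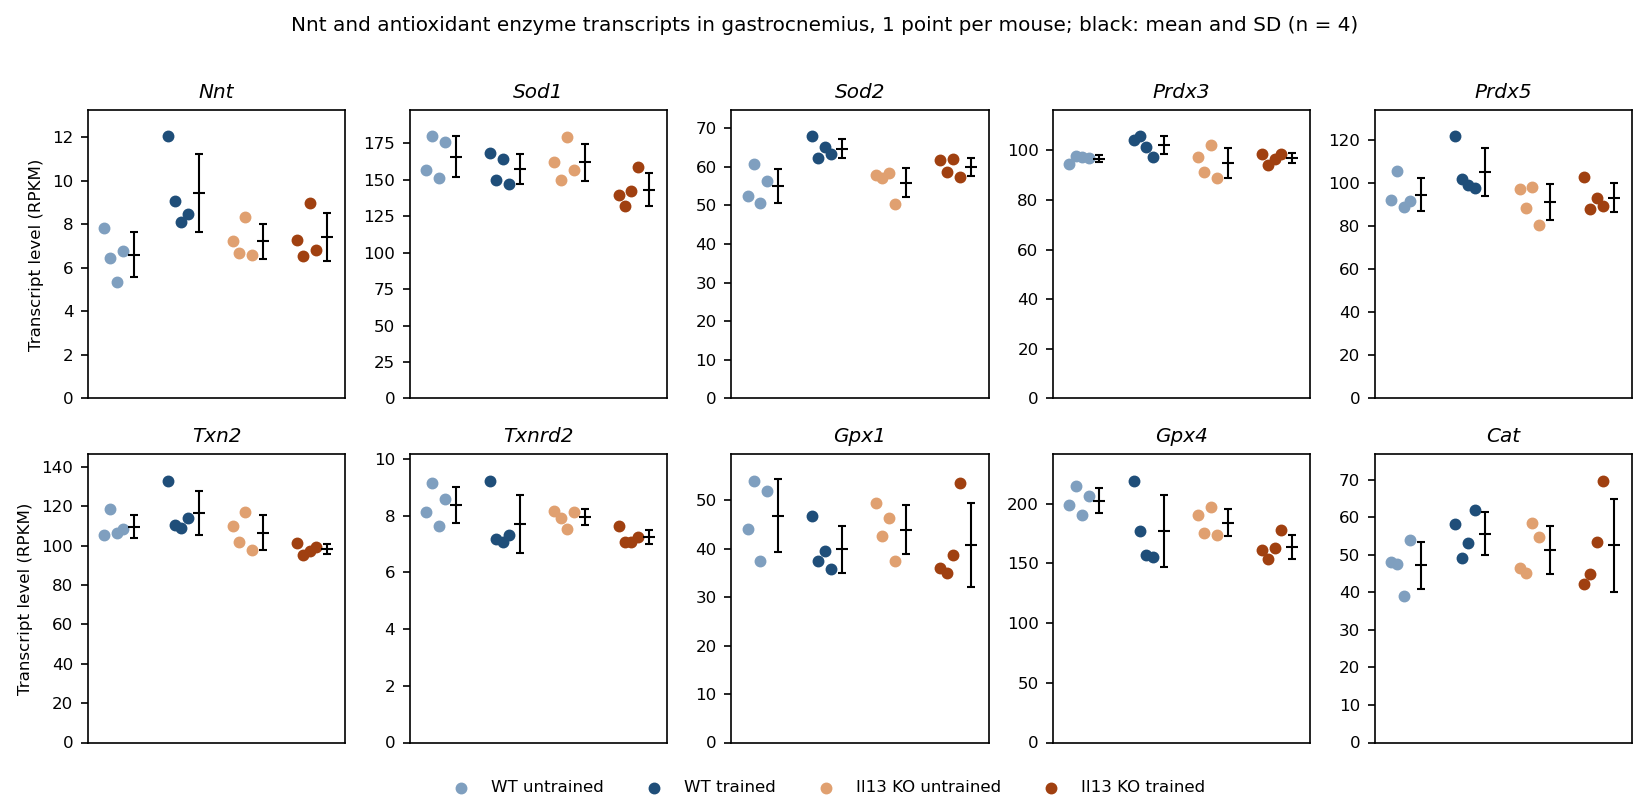
Transcript level (RPKM, vertical axes from 0) of each of the 10 members in the 16 mice, coloured by group, with the mean and SD of each group in black (n = 4). The 4 WT trained mice lie above the 4 WT untrained mice for Nnt and Sod2, and WT trained replicate 1 is the highest point for Nnt, Prdx5, Txn2, Txnrd2 and Gpx4.

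Nnt lies on chromosome 13, bases 119334317 to 119409138 of the minus strand (mm10). In WT untrained mice its level was 7.83, 6.46, 5.33 and 6.76 RPKM, and in WT trained mice 12.03, 9.07, 8.09 and 8.48 RPKM. The lowest trained mouse was thus above the highest untrained mouse, by a small margin. The means were 6.60 ± 1.03 and 9.42 ± 1.79 RPKM (SD, n = 4), a fold of 1.42 with a 95% interval of 1.16 to 1.73. The difference was 0.50 on the log2(RPKM + 0.1) scale (SE 0.13), with an unadjusted p of 0.00165 and an adjusted p of 0.109 (limma). Nnt ranked 154 of 10171 genes by p in this comparison. It passed the threshold in 3 of 27 alternative fits, all of them with another scaling between libraries (adjusted p over the alternatives 0.0315 to 0.327). The table gives values per gene and none per exon, so they do not bear on the strain's deletion. GENCODE M21 holds 2 gene models of this name, and the annotation behind the values is not given in the sources used here.

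Without interleukin-13, Nnt was at 7.24, 6.70, 8.32 and 6.59 RPKM in untrained mice and at 7.27, 6.54, 8.98 and 6.82 RPKM in trained mice. These ranges lay almost on top of each other, and replicate 3 was the highest of each knockout group. The log2 difference with training was 0.03 (SE 0.13, adjusted p = 0.929), with a 95% interval for the fold of 0.84 to 1.25. The interval includes a rise of 1.2 times and does not show that Nnt was the same. Whether training differed in its effect between the genotypes was tested directly: the difference of the 2 responses was -0.47 on the log2 scale (SE 0.19, unadjusted p = 0.0244, adjusted p = 0.55, limma).

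Sod2 encodes the manganese superoxide dismutase of the mitochondrial matrix and Sod1 the copper-zinc enzyme of the cytosol. Sod2 lies on chromosome 17, bases 13007839 to 13018119 of the plus strand (mm10). The bases just before the start of Sod2 and of Txn2 are shown because these were the members whose trained groups did not overlap between genotypes. Each line gives 250 bases from RefSeq (GRCm38.p6), read on the gene's strand up to the start: for Sod2 chr17:13007589-13007838, plus strand, and for Txn2 chr15:77928995-77929244, minus strand. Capitals mark the GC box, GGGCGG on either strand, the motif bound by Sp1 and related factors.
Sod2: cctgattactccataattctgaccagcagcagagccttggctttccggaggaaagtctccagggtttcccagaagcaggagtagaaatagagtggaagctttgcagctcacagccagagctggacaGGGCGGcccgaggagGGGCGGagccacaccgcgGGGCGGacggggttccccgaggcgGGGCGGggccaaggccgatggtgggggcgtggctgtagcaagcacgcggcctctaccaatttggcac
Txn2: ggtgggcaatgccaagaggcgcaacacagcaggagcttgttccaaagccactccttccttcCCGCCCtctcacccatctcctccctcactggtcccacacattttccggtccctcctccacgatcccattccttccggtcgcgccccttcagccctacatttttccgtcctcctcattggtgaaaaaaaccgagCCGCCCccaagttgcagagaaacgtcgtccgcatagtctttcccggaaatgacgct
Sod2 held 4 matches in this window and Txn2 held 2, while 32.7% of 32851 RefSeq mouse promoters held at least 1 in the same 250 bases before the start. The GC box was not particular to these 2: Sod1 also held 4, and of the 9 members with a promoter only Gpx1 had none. Neither the Sod2 nor the Txn2 window matched the antioxidant response motif TGACNNNGC (10.2% of promoters), the estrogen-related receptor motif TNAAGGTCA (1.14%) or the cyclic AMP motif TGACGTCA (1.55%). Of the 9 members with a promoter in the RefSeq table, Sod1 alone matched TGACNNNGC, at 1 place, on the reverse strand. Both strands were searched, and matches are letters in a window, not sites shown to be bound.

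Sod2 stood at 52.5, 60.8, 50.6 and 56.2 RPKM in WT untrained mice and at 67.8, 62.2, 65.1 and 63.4 RPKM in WT trained mice. All 4 trained mice were higher than all 4 untrained mice. The means were 55.0 ± 4.50 and 64.6 ± 2.43 RPKM, a log2 difference of 0.24 (SE 0.06) with an unadjusted p of 0.00192 and an adjusted p of 0.116 (limma). It passed in 4 of 27 alternative fits (adjusted p over the alternatives 0.0134 to 0.358). Knockout (Il13-/-) mice had Sod2 at 57.7, 57.0, 58.5 and 50.3 RPKM untrained and 61.7, 58.5, 61.9 and 57.4 RPKM trained. Here the groups overlapped, and the difference of 0.10 (SE 0.06) had an adjusted p of 0.474. The response differed between genotypes by -0.13 (SE 0.09, adjusted p = 0.718). Averaged over both genotypes the training difference of Sod2 was 0.17 (SE 0.05, adjusted p = 0.0766, limma), the smallest adjusted p of any member in any comparison.

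Sod1, on chromosome 16 (bases 90220742 to 90226324, plus strand, mm10), went the other way in its means. It averaged 166 ± 13.9 RPKM in WT untrained and 157 ± 10.4 RPKM in WT trained mice, a log2 difference of -0.08 (adjusted p = 0.756). In Il13-/- mice it averaged 162 ± 12.8 RPKM untrained and 143.3 ± 11.1 RPKM trained, a difference of -0.18 (SE 0.08, adjusted p = 0.317), and the groups overlapped.

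Prdx3 and Prdx5 encode the peroxiredoxins of mitochondria, and Prdx5 also acts in peroxisomes and the cytosol. Prdx3 (chromosome 19, bases 60864066 to 60874538, minus strand) spread little: WT untrained mice ran from 94.5 to 97.7 RPKM and WT trained mice from 97.2 to 106 RPKM. Its training difference was 0.08 in WT (SE 0.05, adjusted p = 0.58) and 0.03 in Il13-/- mice (adjusted p = 0.779). Prdx5 (chromosome 19, bases 6906819 to 6909645, minus strand) averaged 94.7 ± 7.59 RPKM in WT untrained and 105 ± 11.1 RPKM in WT trained mice. The latter mean included 122 RPKM in replicate 1, and the other 3 trained mice ran from 97.9 to 101.8 RPKM. The log2 difference was 0.15 (SE 0.08, adjusted p = 0.518) in WT, 0.08 without replicate 1, and 0.04 (adjusted p = 0.869) in Il13-/- mice. Prdx5 shares 409 exon bases with Trmt112 on the other strand, and whether counting used strand is not given in the sources used here, so its level is uncertain to that extent.

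Txn2, which encodes mitochondrial thioredoxin, lies on chromosome 15, bases 77915051 to 77928994 of the minus strand (mm10). Its level was 105.2, 118.3, 106.4 and 108.6 RPKM in WT untrained and 133.0, 110.2, 108.9 and 114.2 RPKM in WT trained mice, which overlapped. In Il13-/- mice it was 109.7, 101.6, 117.3 and 97.5 RPKM untrained and 101.4, 95.3, 97.3 and 99.2 RPKM trained. The trained knockout mice were close together, and all 4 lay below the lowest WT trained mouse. Txn2 had training differences of 0.09 in WT (SE 0.07, adjusted p = 0.683) and -0.11 in Il13-/- mice (SE 0.07, adjusted p = 0.471), and these differed from each other by -0.20 (SE 0.10, adjusted p = 0.62). Without WT trained replicate 1 the difference in WT was 0.02 (adjusted p = 0.902).

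Txnrd2 encodes the reductase that recharges Txn2 and lies on chromosome 16, bases 18426417 to 18479073 of the plus strand (mm10). In WT untrained mice it ran from 7.65 to 9.14 RPKM. In WT trained mice 3 libraries were between 7.09 and 7.33 RPKM and replicate 1 was at 9.24 RPKM. Il13-/- untrained mice averaged 7.95 ± 0.286 RPKM and Il13-/- trained mice 7.25 ± 0.262 RPKM. The log2 differences with training were -0.12 (SE 0.08, adjusted p = 0.595) in WT and -0.13 (SE 0.08, adjusted p = 0.47) in Il13-/- mice. Without WT trained replicate 1 that in WT was -0.21 (adjusted p = 0.092).

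Gpx4, the glutathione peroxidase that reduces lipid hydroperoxides in membranes, averaged most in the untrained groups. On chromosome 10 (bases 80053510 to 80056439, plus strand, mm10), it measured 199, 214, 191 and 206 RPKM in WT untrained mice and 219, 177, 157 and 155 RPKM in WT trained mice. Replicates 2, 3 and 4 of the trained group were below every untrained WT mouse, and replicate 1 was above them all. The log2 difference was -0.21 (SE 0.09, unadjusted p = 0.0343, adjusted p = 0.371, limma). Without WT trained replicate 1 it was -0.32 and passed the threshold (adjusted p = 0.0222, range over all alternatives 0.0222 to 0.716). Gpx4 in Il13-/- mice was at 191, 175, 197 and 174 RPKM untrained and at 161, 154, 163 and 178 RPKM trained, a difference of -0.17 (SE 0.09, adjusted p = 0.417). The trained mouse at 178 RPKM overlapped the untrained range. Averaged over genotypes the difference was -0.19 (SE 0.06, adjusted p = 0.143). A processed pseudogene, Gpx4-ps2, is annotated, and how reads shared with it were counted is not given in the sources used here.

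Gpx1, the main glutathione peroxidase of the cytosol, and Cat, the catalase of peroxisomes, had wide spreads within groups, as did Nnt. Gpx1 (chromosome 9, bases 108339080 to 108340344, plus strand) averaged 46.8 ± 7.56 RPKM in WT untrained and 39.8 ± 4.84 RPKM in WT trained mice, a log2 difference of -0.23 (SE 0.14, adjusted p = 0.566). In Il13-/- mice it averaged 43.9 ± 5.07 and 40.8 ± 8.72 RPKM, and the trained group ran from 34.9 to 53.6 RPKM. Cat (chromosome 2, bases 103453904 to 103485153, minus strand) averaged 47.1 ± 6.22 RPKM in WT untrained and 55.6 ± 5.67 RPKM in WT trained mice. That difference was 0.24 (SE 0.14, adjusted p = 0.535), as large as that of Sod2 but with over 2 times its standard error. Il13-/- trained mice spread from 42.2 to 69.7 RPKM for Cat, around a mean of 52.5 ± 12.4 RPKM, against 51.2 ± 6.43 RPKM untrained.

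Read as a set, 6 of 10 members were higher on average in trained than in untrained WT mice, and 52.4% of all tested genes were. The median log2 difference was 0.08 over the members and 0.01 over all tested genes. None of the 10 passed the threshold, and 0.187% of all genes did. At an unadjusted p under 0.05 there were 3 members, Nnt and Sod2 higher and Gpx4 lower, beside 11.8% of all genes. Groups did not overlap for 2 members, Nnt and Sod2, beside 6.37% of all genes. In Il13-/- mice 5 of 10 members were higher with training, as were 35.1% of all genes, and the medians were -0.05 over members and -0.06 over all genes. No member and 0% of genes passed there. Sod1 alone had an unadjusted p under 0.05, beside 13.7% of genes, and no member was free of overlap, beside 9.43% of genes. A count this near the background is not a result about the members.

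**Figure D2:**
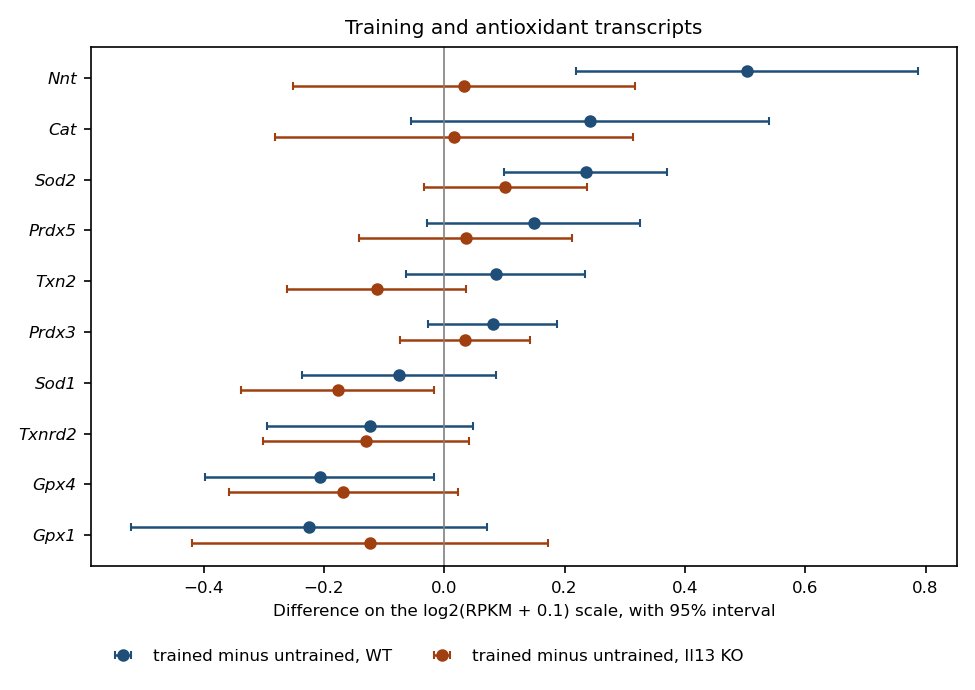
Trained minus untrained difference of each member on the log2(RPKM + 0.1) scale (horizontal axis), with 95% intervals, in WT (blue) and Il13-/- mice (brown). In WT the intervals of Nnt and Sod2 lie above 0 and that of Gpx4 below it, in Il13-/- mice that of Sod1 lies below 0, and no member passed the adjusted threshold.

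For the difference of training responses between genotypes, Nnt was the single member with an unadjusted p under 0.05, beside 8.40% of all genes, and 0% of genes passed the adjusted threshold. Taken as the Il13-/- response minus the WT response, the difference was above 0 for 2 of 10 members, Gpx1 and Gpx4, and for 38.4% of all genes. The sign does not give the size of a response: Sod1 and Txnrd2 averaged less with training in both genotypes. The median was -0.11 over the members and -0.05 over all genes. Averaged over genotypes, 5 members had an unadjusted p under 0.05, Nnt and Sod2 higher and Sod1, Txnrd2 and Gpx4 lower in trained mice. The share among all genes was 18.0%, and 0.777% of genes passed the adjusted threshold. Nnt had a difference of 0.27 (SE 0.10, adjusted p = 0.16) there, and Txnrd2 one of -0.13 (SE 0.06, adjusted p = 0.259). Counts over the members rested on scaling and on 1 library: under other scalings or without WT trained replicate 1, between 1 and 3 members passed in the WT or the averaged comparison.

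The comparison of genotypes asked whether the members differed when Il13 was missing. In untrained mice they differed little. The log2 differences, Il13-/- minus WT, ran from -0.14 for Gpx4 (SE 0.09, adjusted p = 0.801) to 0.13 for Nnt (SE 0.13, adjusted p = 0.886). Sod2 had 55.0 ± 4.50 RPKM in WT and 55.9 ± 3.73 RPKM in Il13-/- untrained mice, a fold of 1.02 with an interval of 0.925 to 1.12. No member passed, beside 0.0492% of genes. None had an unadjusted p under 0.05, beside 6.20%, and none was free of overlap, beside 3.95%.

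In trained mice 9 of 10 members were lower in Il13-/- than in WT mice, with Gpx1 (0.02, adjusted p = 0.961) the exception. Without WT trained replicate 1 Txnrd2 and Gpx4 also stood just above 0, both at 0.01. Over all genes 34.8% were higher in the knockout, the median difference was -0.05, and that of the members was -0.11. The largest separation was that of Txn2, at 116.6 ± 11.2 RPKM in WT and 98.3 ± 2.63 RPKM in Il13-/- trained mice, a difference of -0.24 (SE 0.07, unadjusted p = 0.00321, adjusted p = 0.201, limma). Without WT trained replicate 1, which had 133 RPKM, the difference of Txn2 was -0.18 (adjusted p = 0.584, range over all alternatives 0.141 to 0.584). Nnt differed by -0.34 (SE 0.13, adjusted p = 0.289) with overlapping groups, and by -0.21 without that library. Sod2 differed by -0.11 (SE 0.06, adjusted p = 0.44), the lowest WT trained mouse at 62.2 RPKM and the highest Il13-/- trained mouse at 61.9 RPKM. No member passed, beside 0.0885% of genes. At an unadjusted p under 0.05 there were 2 members, Nnt and Txn2, beside 13.9% of genes, and 2 were free of overlap, Sod2 and Txn2, beside 8.48%.

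With both states of training averaged, Txn2 was lower in Il13-/- mice by -0.14 on the log2 scale (SE 0.05, adjusted p = 0.323) and was the only member with an unadjusted p under 0.05, beside 12.2% of genes. No member passed, beside 0.0787% of genes. The WT trained group enters both the training and the genotype comparison in trained mice, so the 2 are not independent of each other.

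**Figure D3:**
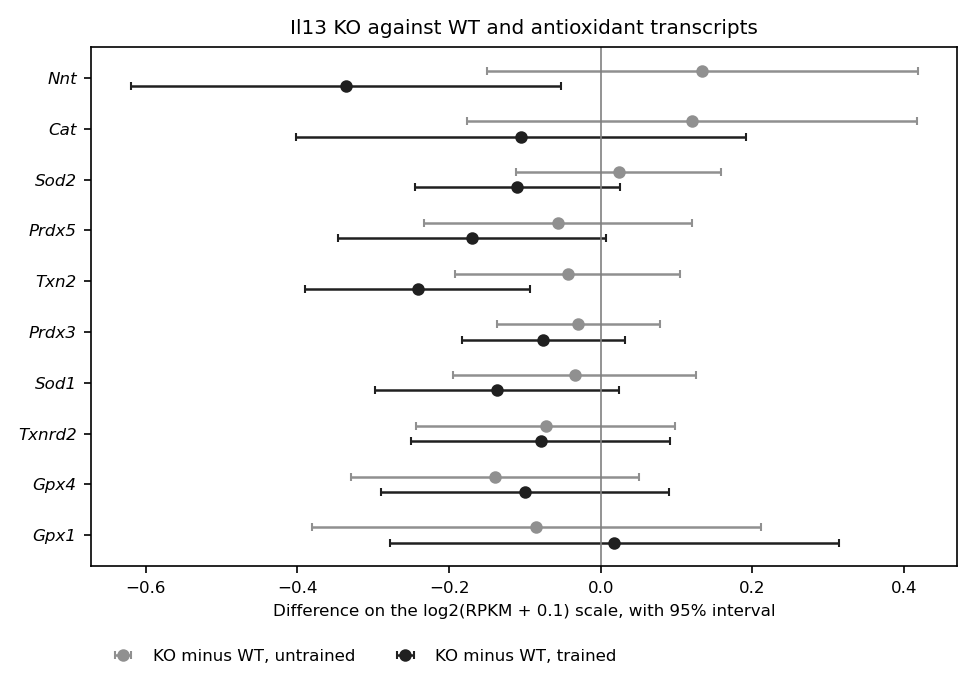
Il13-/- minus WT difference of each member on the log2(RPKM + 0.1) scale (horizontal axis), with 95% intervals, in untrained and in trained mice. Every interval in untrained mice spans 0, and in trained mice those of Txn2 and Nnt lie below 0 without passing the adjusted threshold.

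Correlations among the members across the 16 libraries were described after their values were seen and without a test. Pearson's r of log2 levels was 0.73 between Nnt and Sod2, 0.69 between Nnt and Prdx5, 0.79 between Sod2 and Prdx5 and 0.78 between Prdx3 and Prdx5. Gpx4 went with Txnrd2 (r = 0.83), Sod1 (r = 0.77) and Gpx1 (r = 0.75), and hardly with Nnt (r = 0.09) or Sod2 (r = -0.15). Txn2 lay between, with r = 0.83 to Prdx5 and r = 0.64 to Gpx4. The libraries share their totals and the share of reads in listed genes, which enters every gene alike. Without WT trained replicate 1 alone, r was 0.64 between Nnt and Sod2, 0.44 between Nnt and Prdx5 and -0.31 between Nnt and Gpx4. Without it and WT untrained replicate 3, the 2 libraries farthest from the median of Nnt, r was 0.50 between Nnt and Sod2 and 0.41 between Nnt and Prdx5. With group means removed these sets did not stand apart: Gpx4 then had r = 0.67 with Nnt, above the 0.46 of Sod2 and the 0.59 of Prdx5, and r = 0.45 with Sod2.

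The 5 tested genes whose log2 levels were most like Nnt over the 16 libraries were Adck3 (r = 0.94), Ldhb (r = 0.93), Atp1b1 (r = 0.92), Fabp3 (r = 0.91) and Hadha (r = 0.91). Ldhb is the heart-type subunit of lactate dehydrogenase, Fabp3 the fatty acid carrier of heart and oxidative muscle, and Hadha a subunit of the mitochondrial enzyme of fatty acid oxidation. Ldhb averaged 115 ± 15.7 RPKM in WT untrained, 189 ± 37.3 RPKM in WT trained, 132 ± 30.1 RPKM in Il13-/- untrained and 122 ± 26.4 RPKM in Il13-/- trained mice. The 5 least alike were Tirap (r = -0.87), Myh4 (r = -0.84), Osbpl6 (r = -0.80), Atp8a1 (r = -0.80) and Phkb (r = -0.79). Myh4 is the myosin heavy chain of the fastest fibres and averaged 9977 RPKM in WT untrained and 8365 RPKM in WT trained mice. Myh1, another of the fast muscle markers, went with Nnt instead (r = 0.73). Among the members Sod2 ranked 158 and Prdx5 ranked 236 of all tested genes by likeness to Nnt.

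Slow and oxidative fibre markers varied with Nnt. The 10 markers Myh7, Myh2, Tnnt1, Tnnc1, Tnni1, Myl2, Myl3, Atp2a2, Casq2 and Mb summed to 1944 to 2595 RPKM in WT untrained mice and to 3337 to 4558 RPKM in WT trained mice, with no overlap. In Il13-/- mice the sums were 2010 to 3318 RPKM untrained and 2030 to 3274 RPKM trained, and replicate 3 of each group was the highest. These sums weigh abundant genes most: Mb averaged 1787 RPKM over the 16 libraries and Myh7 30.8 RPKM. By gene, 8 of the 10 were lower with training in Il13-/- mice and 2 higher, none with an unadjusted p under 0.05 (limma). Their median log2 difference was -0.21, beside -0.06 over all genes. Among untrained mice 9 of the 10 were higher in Il13-/- than in WT, with a median of 0.41 beside 0.004. The fast muscle markers summed to less in trained mice. In WT the sums were 81730 to 90458 RPKM untrained and 67727 to 76790 RPKM trained. In Il13-/- mice they were 76284 to 77834 RPKM untrained and 68280 to 75776 RPKM trained, again without overlap. Of the 8 fast markers 7 were lower and 1 higher in trained WT mice, all with an unadjusted p under 0.05 (limma). In Il13-/- mice 6 were lower, 1 of these with an unadjusted p under 0.05, and 2 higher. Their median there was -0.06, as over all genes. The replicates with the largest slow sum in each knockout group were those in which Nnt was highest, and WT trained replicate 1, with 12.03 RPKM of Nnt, had the highest sum of all. All 10 markers were higher on average in trained than in untrained WT mice, and 1 of them passed the threshold, Myh2, the myosin of fast oxidative fibres, at 381 ± 21.6 and 632 ± 79.0 RPKM (log2 difference 0.72, adjusted p = 0.0365, limma). Myh2 did not pass in 7 of 27 alternative fits.

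With the log2 of this marker sum, Nnt had r = 0.92 over the 16 libraries, Sod2 r = 0.83, Prdx5 r = 0.79, Prdx3 r = 0.76 and Txn2 r = 0.68. Cat had r = 0.44, Sod1 r = 0.25, and Gpx4, Gpx1 and Txnrd2 had r between 0.01 and 0.08. By single marker, r with Nnt ran from 0.67 (Myh7) to 0.88 (Myl3), and with group means removed from 0.43 to 0.84 for the same genes. With group means removed the value for the sum was 0.85 for Nnt, 0.73 for Prdx5, 0.71 for Sod2, 0.71 for Txn2 and 0.63 for Prdx3. It was 0.61 for Gpx4, 0.60 for Sod1, 0.45 for Gpx1, 0.33 for Txnrd2 and 0.28 for Cat. Within groups, then, Gpx4 and Sod1 also went with the fibre markers. With the sum of 12 mitochondrial genes the order differed: Prdx5 had r = 0.93, Prdx3 r = 0.88, Sod2 r = 0.85, Txn2 r = 0.78 and Nnt r = 0.70. In bulk muscle, a change in the number of fibres of a type and a change of RNA within each fibre cannot be told apart, and the part of fibre makeup in the levels of the members was not tested.

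**Figure D4:**
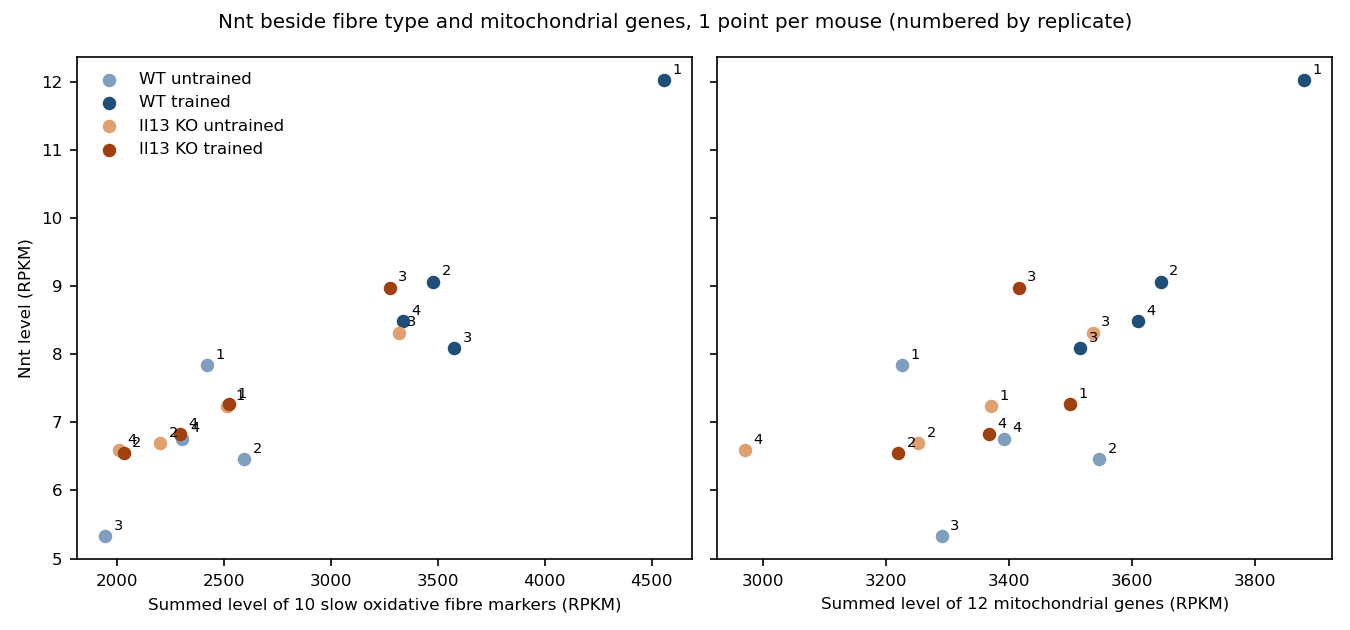
Nnt level (RPKM, vertical axis, starting above 0) against the summed level of 10 slow oxidative fibre markers (left, RPKM) and of 12 mitochondrial genes (right, RPKM), 1 point per mouse with its replicate number. WT trained replicate 1 is the highest on every axis, and within each Il13-/- group replicate 3 has the most Nnt and the largest fibre marker sum.

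The mitochondrial list held Cs, Vdac1, Vdac2, Tfam, Tomm20, Cycs, Cox4i1, Atp5a1, Sdha, Uqcrc2, Ndufs1 and Hspd1. Its sum was 3227 to 3547 RPKM in WT untrained, 3516 to 3880 RPKM in WT trained, 2971 to 3537 RPKM in Il13-/- untrained and 3220 to 3500 RPKM in Il13-/- trained mice. Of the 12 genes 11 were higher in trained WT mice, with a median log2 difference of 0.16, and 9 in trained Il13-/- mice, with a median of 0.03. Over all genes 52.4% and 35.1% were higher, with medians of 0.01 and -0.06. Cycs, which encodes cytochrome c, rose with training averaged over genotypes (log2 difference 0.25, SE 0.04, adjusted p = 0.0137, limma), from 108 ± 6.05 to 126 ± 8.34 RPKM in WT and from 103 ± 4.86 to 124 ± 4.02 RPKM in Il13-/- mice. It kept its call in 25 of 26 alternative fits, and none of the others of this list passed in any comparison.

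Other cell types were read from marker lists beside these values. Tendon markers Tnmd, Scx, Fmod, Comp, Prg4 and Thbs4 summed to 113 to 142 RPKM in WT untrained and 186 to 241 RPKM in WT trained mice, without overlap, and to 134 to 225 and 89.8 to 200 RPKM in the untrained and trained Il13-/- groups. With this sum Nnt had r = 0.72, and the part of tendon in its level was not tested. Sums for macrophages (24.0 to 58.1 RPKM), endothelium (53.4 to 74.7 RPKM), smooth muscle (33.1 to 64.8 RPKM), nerve (30.1 to 134 RPKM), adipocytes (295 to 663 RPKM) and erythroid cells (90.8 to 265 RPKM) overlapped between the WT groups. In Il13-/- mice 2 of these 6 sums did not overlap. Smooth muscle markers summed to 47.7 to 64.8 RPKM untrained and 33.1 to 44.8 RPKM trained, and all 4 were lower in trained mice with an unadjusted p under 0.05, none of them past the threshold. Nerve markers summed to 58.3 to 134 RPKM untrained and 39.4 to 57.5 RPKM trained. The part of both in the training differences of the members in Il13-/- mice was not tested. The member with the highest r was Gpx1 for macrophages (r = 0.77) and erythroid cells (r = 0.71), and Txn2 for endothelium (r = 0.79). For smooth muscle it was Txnrd2 (r = 0.67), for nerve Sod1 (r = 0.56) and for adipocytes Nnt (r = 0.53). Il13-/- trained replicate 4, the highest of its group for Gpx1 and Cat, had the highest erythroid sum, 265 RPKM. The part of these sums in the members' levels was not tested. Of the lists 4 of 6 erythroid and 6 of 7 macrophage markers were matched by name, and the others in full. Of the defining markers Ucp1, that of brown fat, was at 0 in all 16 libraries, and Slc4a1, that of red cells, in 6.

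The other genes of the pathway were taken from 7 lists of peroxidases, thioredoxins and glutaredoxins, glutathione enzymes, NADPH sources, Nrf2 regulators and targets, selenoproteins and sources of peroxide. Of these genes 103 were found in the table and 97 were tested. None passed in WT, in Il13-/- mice, in their difference or in any comparison of genotypes, and 1 passed with training averaged over genotypes. That was Mafg, a small Maf protein that pairs with Nrf2, the main regulator of antioxidant genes (log2 difference -0.25, SE 0.06, adjusted p = 0.0485, limma). Mafg averaged 12.5 ± 0.889 RPKM in WT untrained and 9.67 ± 0.887 RPKM in WT trained mice, a log2 difference of -0.37 in WT alone (adjusted p = 0.0547, limma). The Il13-/- response minus the WT response was 0.23 (adjusted p = 0.616, limma). The averaged call was lost in 19 of 26 alternative fits.

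Nnt encodes 1 of several makers of matrix NADPH, and RNA levels do not show whether these mice made a working enzyme. Of the 14 tested NADPH genes 9 were higher and 5 lower in trained WT mice, beside 52.4% of all genes higher. Idh2, the mitochondrial isocitrate dehydrogenase that makes NADPH, had 119.05 ± 10.3 RPKM in WT untrained and 170 ± 41.2 RPKM in WT trained mice without overlap (0.49, SE 0.17, adjusted p = 0.259). Its size in WT was close to that of Nnt, and its response differed between genotypes by -0.59 (SE 0.25, adjusted p = 0.551). Me1, the malic enzyme of the cytosol, was lower in all 4 trained WT mice, at 81.8 ± 5.86 and 70.05 ± 3.64 RPKM (-0.22, SE 0.06, adjusted p = 0.116).

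Among 16 tested Nrf2 regulators and other targets, 13 were below 0 in WT and 15 in Il13-/- mice with training, with medians of -0.14 and -0.16 beside 0.01 and -0.06 over all genes. Over all genes 52.4% and 35.1% were above 0. None of the 16 passed in either genotype. Fth1, the ferritin heavy chain, averaged 1058 ± 59.2 RPKM in WT untrained and 905 ± 131 RPKM in WT trained mice (-0.23, adjusted p = 0.245). Sqstm1, an adaptor of selective autophagy, averaged 260 ± 11.1 RPKM in untrained and 220 ± 28.1 RPKM in trained Il13-/- mice (-0.24, adjusted p = 0.259).

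Of the 13 other peroxidase and superoxide dismutase genes, 10 were higher in trained than in untrained WT mice and 5 in trained Il13-/- mice, with medians of 0.10 and -0.09. Over all genes 52.4% and 35.1% were higher, with medians of 0.01 and -0.06. In trained mice 10 of 13 were lower in Il13-/- than in WT mice and 3 higher, beside 34.8% of all genes higher. The median there was -0.20, beside -0.05 over all genes. Prdx6, a peroxiredoxin that acts on phospholipid peroxides, had 36.6 ± 1.99 RPKM in WT trained and 30.7 ± 2.84 RPKM in Il13-/- trained mice, without overlap (-0.26, SE 0.08, adjusted p = 0.206). Sod3, the extracellular superoxide dismutase, averaged 8.86 ± 1.62 RPKM in Il13-/- untrained and 6.17 ± 1.83 RPKM in Il13-/- trained mice (-0.54, SE 0.22, adjusted p = 0.298).

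Of 19 glutathione genes, 10 were lower in trained WT and 15 in trained Il13-/- mice. The 9 and 4 that were higher stand beside 52.4% and 35.1% of all genes. Medians were -0.03 and -0.09, beside 0.01 and -0.06 over all genes. Gstm5, a glutathione transferase, had 62.1 ± 2.13 RPKM in WT untrained and 53.0 ± 4.40 RPKM in WT trained mice without overlap (-0.23, SE 0.07, adjusted p = 0.164). Gsr, the reductase that recharges glutathione for Gpx1 and Gpx4, stood at 6.74 ± 0.377 RPKM in Il13-/- untrained and 5.81 ± 0.545 RPKM in Il13-/- trained mice, without overlap (-0.22, SE 0.07, adjusted p = 0.259). Of 12 thioredoxin and glutaredoxin genes 7 were higher in trained WT mice, beside 52.4% of all genes. Tmx2 had the smallest p (0.28, SE 0.11, adjusted p = 0.323). Glrx5, a mitochondrial glutaredoxin of iron-sulfur cluster assembly, had 39.2 ± 5.61 RPKM in WT trained and 31.9 ± 1.86 RPKM in Il13-/- trained mice, without overlap (-0.29, SE 0.09, adjusted p = 0.206).

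Gpx1, Gpx4 and Txnrd2 are selenoproteins, and 14 other selenoprotein and selenium genes had a median difference of 0.02 in trained WT mice, 10 of them above 0. Over all genes the median was 0.01 and 52.4% were above 0. Sepw1, a small selenoprotein abundant in muscle, averaged 1103 ± 60.1 RPKM in WT untrained and 937 ± 109 RPKM in WT trained mice (-0.24, SE 0.08, adjusted p = 0.182). Of 9 tested sources of superoxide and peroxide, 5 were higher in trained WT mice, beside the same 52.4% of all genes.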

How the data were processed

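RNA of gastrocnemius from 16 mice, 4 in each of 4 groups, went into stranded mRNA libraries, according to the labels' protocols. The deposited values are RPKM computed per gene by the authors, and per the file headers the reads had been trimmed. The build was mm10 (submitters' processing notes). Neither the aligner nor the counting, the annotation or the use of strand is given in the sources used here. Mouse identifiers in the labels tied each of the 16 columns to its group.

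Genes at 1 RPKM or more in at least 4 libraries were kept, 10171 of 23440. A model with 1 mean per group was fitted to log2(RPKM + 0.1) across all of them with limma 3.58.1 (R 4.3.3, trend and robust moderation), after a check on simulated data. There were 7 contrasts, each adjusted by Benjamini-Hochberg over all genes, with a threshold of 0.05. Differences and folds come from that log2(RPKM + 0.1) scale, which understates those of low genes, and intervals are at 95%. Library totals and reads per gene were solved from the steps of low RPKM values, where 100% of values came out whole within 0.01 read. A count of 0 allows 3 reads, which covers counting error only. Positions are those deposited by the authors with the values (mm10). Shared exon bases and the pseudogene are from GENCODE M21, and promoters from RefSeq (GRCm38.p6).

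The members and lists were chosen with earlier results of these data known. The text names all 10 members, the genes of each list past the threshold or otherwise those with the smallest p (not all are printed), and the 5 genes most and least like Nnt. Alternatives were other scalings, filters, pseudocounts, library weights, voom on recovered reads, the replicate number as a block and leaving out each library. The rescaling to listed genes and the fit without both Il13-/- libraries numbered 3 were chosen after seeing the data.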

Additional observations from a re-analysis of the deposited data

Results flagged for a closer look

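Of 40 groups of 4 values (10 members in 4 groups), 2 held a library far from the others, and chance alone marks about 1 group in 20. Both were in WT trained replicate 1. Prdx5 was at 121.7 RPKM there, while the other 3 mice of the group ran from 97.9 to 101.8 RPKM. Txnrd2 was at 9.24 RPKM, and the other 3 ran from 7.09 to 7.33 RPKM. The gap to the nearest mouse was 0.835 of the group's range for Prdx5 and 0.886 for Txnrd2, above the critical value of 0.829. The same library had 83.5% of its reads in listed genes, the highest of the 16, and the largest sum of slow fibre markers, 4558 RPKM. The part of these in the values was not tested.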

How the results depend on the processing

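No member passed the threshold in 5 of the 7 comparisons under any alternative. The exceptions were training in WT and training averaged over genotypes, with 0 members each as reported. In WT, 2 passed with quantile normalization (Nnt and Sod2), 2 with library weights (Sod2 and Gpx4), 2 with voom (Nnt and Sod2) and 2 after rescaling to listed genes (Nnt and Sod2). Averaged, the counts were 1 at an adjusted p under 0.1 (Sod2), 2 with quantile normalization and 2 with voom (Sod2 and Gpx4), 3 with library weights (Sod2, Txnrd2 and Gpx4) and 2 after rescaling (Sod2 and Prdx3). Over all genes these averaged counts were 376, 252, 277, 1152 and 365. Leaving out each library in turn gave 0 to 1 members in WT and 0 to 3 averaged, both maxima without WT trained replicate 1 (Gpx4, and Sod2, Txnrd2 and Gpx4). Without that library 272 of all genes passed in WT and 1044 averaged. The cause was not tested.

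Over all genes the count past the threshold ranged from 0 to 329 for training in WT (19 reported), from 0 to 106 in Il13-/- mice (0), from 4 to 1152 averaged (79), from 2 to 24 for the genotypes in trained mice (9), from 3 to 6 in untrained mice (5), from 6 to 13 averaged over training (8) and from 0 to 4 for the difference of responses (0). Without WT untrained replicate 3, or WT trained replicate 3 or 4, it was 0 in WT, and without WT trained replicate 1 it was 106 in Il13-/- mice. The share of these genes that was higher in trained mice moved with scaling, with weights and with the library left out. In WT it was 68.4% as reported, 65.8% with quantile normalization, 57.9% with voom, 85.0% after rescaling, 33.1% with library weights and 24.6% without WT trained replicate 1, and averaged it was 41.8%, 59.9%, 53.8%, 86.3%, 29.7% and 31.4%.

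Of 1860 refitted member differences 64 changed sign, 60 of them where the reported value was within 1 standard error of 0. Quantile normalization reversed Prdx3 (0.0273) and Gpx4 (0.00677) for genotype in trained mice and Prdx3 (0.0178) averaged, as well as Fth1 in untrained mice (0.0252) and Sepw1 averaged (0.107). Leaving out single libraries took Gpx4 for genotype in trained mice from -0.158 to 0.00765, the latter without WT trained replicate 1.

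With the replicate number as a block 0 members passed in each comparison, and all genes past the threshold numbered 16 in WT and 31 averaged. Same-numbered libraries had correlations of -0.182 to 0.442 over 24 pairs, 6 above 0.1, and 6 of 16 libraries correlated best with their own number, so the numbers were not taken to pair the mice. The fit on the compared groups alone was not run for the 3 comparisons that use all 4 groups. Depth limits Txnrd2 and Nnt most, at 228 to 304 and 423 to 930 reads a library.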
